A study of Mus musculus with 4 samples.

Results

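ATAC-seq reads over gene exons were described in the control libraries of a study of Zscan4 overexpression in J1 mouse embryonic stem cells. These are 2 of the 4 libraries of the series, taken by their labels, and all 46406 gene rows were used in each. J1 is a male line derived from 129-strain blastocysts. The control cells are labelled wild type, at passage PN+8, and were kept in traditional medium without feeder cells. Neither an empty vector nor a mock treatment is named for them, and the labels do not say whether control 1 and control 2 came from separate cultures. Any difference between the libraries therefore covers only the spread of these 2 libraries, which may be technical.

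In ATAC-seq the transposase Tn5 inserts sequencing adapters into DNA that nucleosomes leave free. Active promoters and enhancers take up many insertions for their length, and closed chromatin takes up few. Exon counts catch the promoter signal only where it reaches into the transcribed part of a gene, and beyond that they record the low level of insertion along the gene body. In embryonic stem cells, promoters of housekeeping genes and of the pluripotency network are open, while receptor genes of sensory neurons lie in compact chromatin.

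The libraries were shallow. Control 1 had a total of 1061428 reads, of which 131205 (12.4%) lay on the counted exons, and control 2 had 2903602, of which 272368 (9.38%) did. These totals were placed by making the exon shares alike across the series. Each row's value was brought to the library's own total and is given as RPKM, reads scaled by counted exon length and library depth. The median row held 1 read in control 1 and 3 in control 2, and the median protein-coding gene held 4 and 8. No read was found for 18767 rows (40.4%) in control 1 and 11764 rows (25.4%) in control 2, and 9294 rows (20.03%) had none in either. A count of 0 was taken to allow up to 3 reads, which is 2.83 RPM in control 1 and 1.03 RPM in control 2. These 3 reads are a fixed floor and not the bound of an interval. Of 20272 protein-coding genes, 17100 (84.4%) had a read in both libraries and 927 in neither. Intervals in this text are exact Poisson 95% intervals and cover counting error only.

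Reads were spread thinly over the genes, apart from a few rows of predicted gene models. The 10 rows with most reads held 2.43% of exon reads in control 1 and 2.41% in control 2, and the top 1000 held 18.4% and 17.1%. All of the 10 rows with most reads over both libraries carried predicted or clone names. The predicted gene Gm10800 led with 697 reads in control 1 and 3627 in control 2, over a counted length of 660 bp. Gm26917 followed with 709 and 1037 reads and CT010467.1 with 327 and 465. Gm42418, a pseudogene row on chromosome 17, held 192 and 296, and Gm10801 held 139 and 251. The remaining 5 rows were Gm28438 (301 and 241 reads), Gm10222 (198 and 168), Gm28437 (238 and 118), Gm10925 (229 and 121) and Gm28661 (162 and 103). Gm10222 and Gm10925 are annotated as nearby pseudogenes, at chr1:24612404-24612700 and chr1:24613971-24614651 (GRCm38.p6). No row carried a symbol of the mitochondrial genome itself.

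The controls agreed on the gross order of gene classes and only loosely on single genes. Over the 6357 rows with 20 reads or more in the pair, Pearson's r of log2(RPKM + 0.1) was 0.681 and Spearman's rho was 0.561. These rows share the annotation, their length and the library totals, and are not independent, so the coefficients are a description. With lower minimums the coefficients were lower, at r = 0.533 and rho = 0.472 from 10 reads (14088 rows) and r = 0.388 and rho = 0.403 from 5 reads (21408 rows). Taking every row with 1 read or more (37112 rows) gave r = 0.021 and rho = 0.134. Rows with 50 reads or more (605 rows) gave r = 0.882 and rho = 0.712, and the 44 rows with 100 or more gave 0.953 and 0.922. The median protein-coding gene held 12 reads over both controls, a count whose interval runs from 6.20 to 21.0, so most single genes cannot be ranked closely at this depth.

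The difference between the libraries was larger than counting error. For 20 reads or more, the chi-square of the reads over its degrees of freedom was 2.34, where counting error alone gives a value near 1. It was 2.09 for the 6313 rows with 20 to 99 reads, 2.25 without rows of 1000 reads or more and 2.23 against the share of each row's own chromosome. Among 6341 rows with reads in both libraries, the median log2 ratio of control 1 to control 2 was 0.40, with quartiles of -0.20 and 0.92. Of these rows 76.3% lay within 2-fold of that median. The tenth of rows with the highest RPKM, 636 rows in each library, had 385 rows (60.5% of either list) in common.

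**Figure D1:**
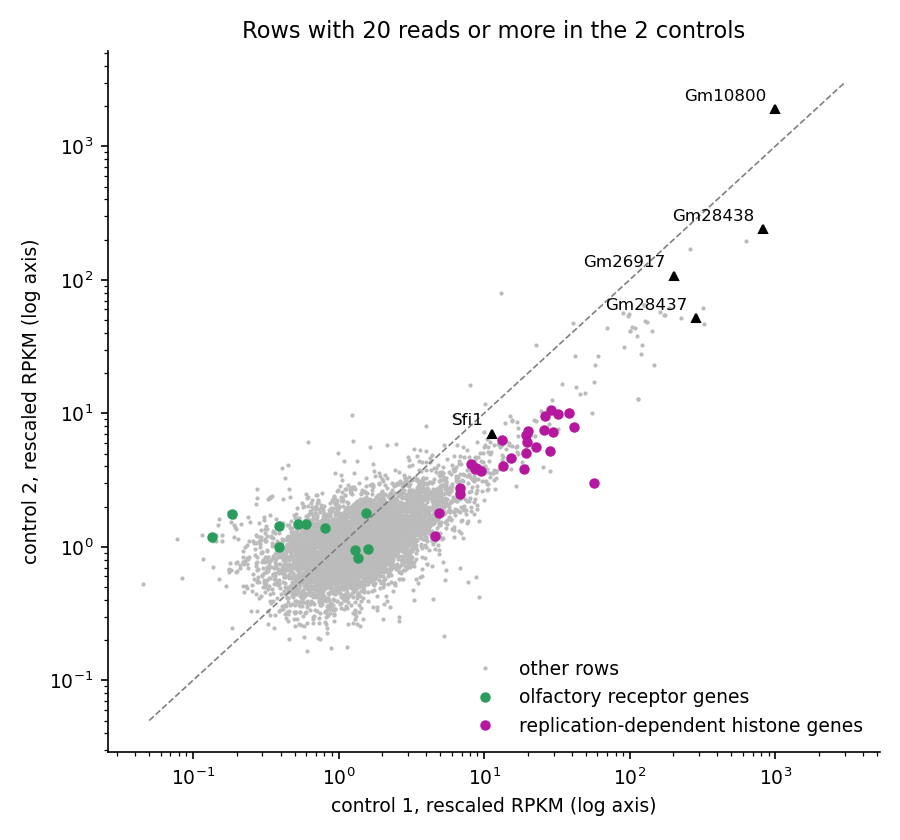
Rescaled RPKM in control 1 (x axis) and control 2 (y axis) for rows with 20 reads or more over both libraries, on log axes, each point 1 row; the dashed line marks equal values. Replication-dependent histone genes (magenta) lie at the upper end of the cloud and below the line, olfactory receptor genes (green) mostly lie above it, and Gm10800 stands apart at 995 and 1893 RPKM.

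Gene classes were taken from symbols alone. For each class the summed reads over the summed exon length were divided by the same quotient over all rows of the library. This gives a relative density of 1 for the average exon base and does not depend on the library total. Rows without a read in any of the 4 libraries have no length and were left out, so 44279 of 46406 rows entered. Row counts below include them. Of 700 small nuclear RNA rows 546 entered, of 994 microRNA rows 885 and of 6117 pseudogene rows 5441. Of 211 ribosomal protein pseudogenes 167 did. Densities of such sparse classes would be lower with the empty rows counted. Of 25 classes, 6 had intervals above 1 in both controls and 9 had intervals below 1 in both. Across the classes the log2 densities of the controls gave r = 0.958 and rho = 0.898 (25 classes that share their libraries, given as a description). The densest were histone genes, small nucleolar RNA genes, microRNA genes and ribosomal protein genes, and the thinnest were vomeronasal and olfactory receptor genes.

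**Figure D2:**
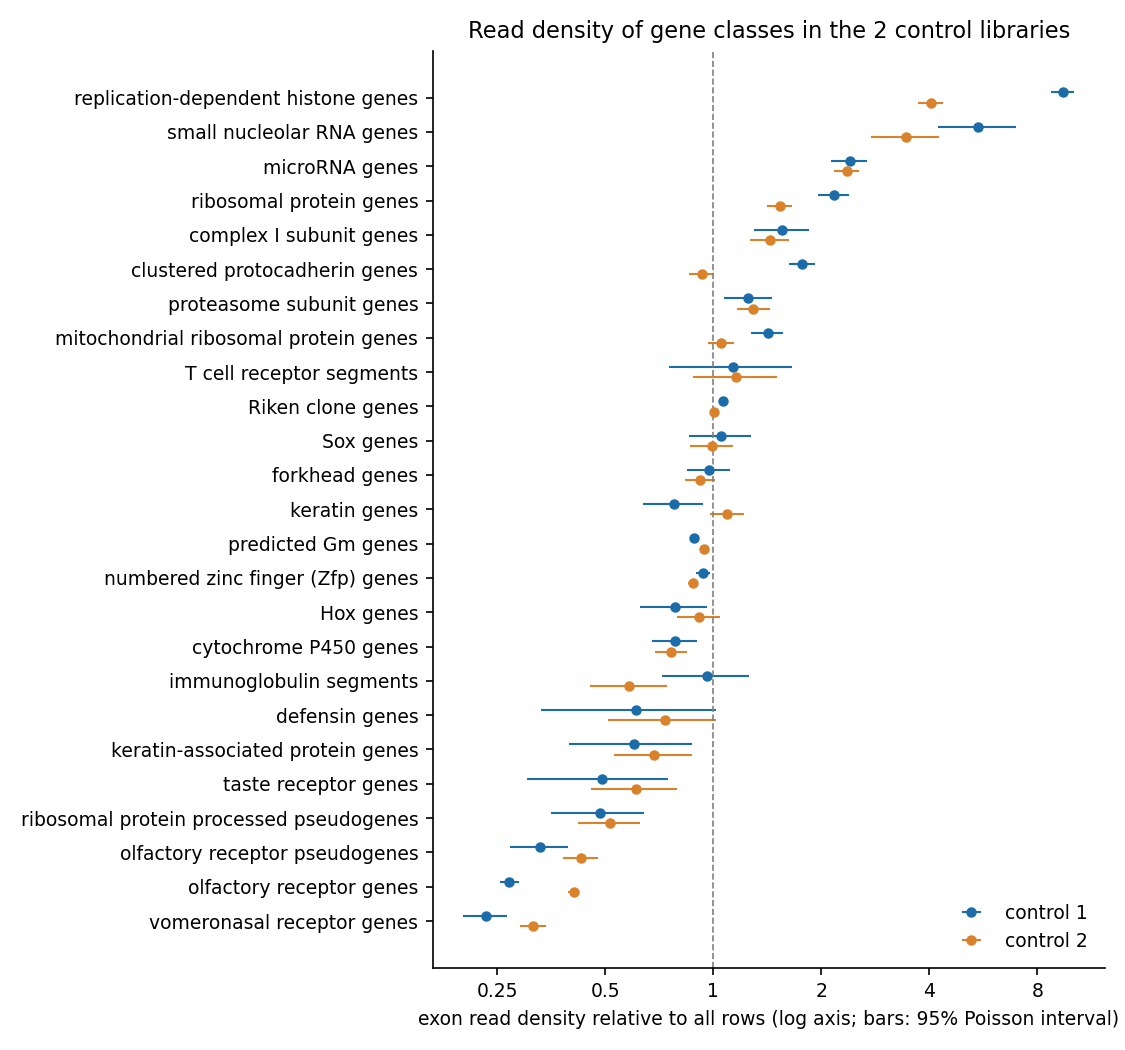
Relative read density (x axis, log scale, 1 is the average over all rows) of 25 symbol-defined gene classes in control 1 (blue) and control 2 (orange), with exact Poisson 95% intervals as bars. Histone genes stand highest at 9.40 and 4.04, and vomeronasal receptor genes lowest at 0.232 and 0.315.

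Replication-dependent histone genes, whose products package newly copied DNA and which lie in dense clusters, were the densest of the 25 classes. Their 66 rows held 682 reads in control 1 and 609 in control 2. The relative density was 9.40 (8.71 to 10.1) in control 1 and 4.04 (3.73 to 4.38) in control 2, or 6.72 ± 3.79 (SD, n = 2). The median RPKM of the rows was 11.4 and 3.69, against 0.580 and 0.630 for all rows. Both libraries placed the class far above the average, while they differed on its size by 2.33-fold (interval of the ratio 2.08 to 2.60). Of 47 histone rows with 10 reads or more, 43 had the higher RPKM in control 1, as did 9395 of all 14088 rows with that many reads (66.7%), a share that rests on the placed totals.

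The Hist1 cluster on chromosome 13 carried most of this signal. Its 54 rows held 613 of the reads in control 1 and 521 in control 2, a density of 10.99 and 4.502. The 8 Hist2 rows, on chromosome 3, had 4.40 and 2.89. The 3 Hist3 rows, on chromosome 11, had 3.05 and 2.40, and Hist4h4, alone on chromosome 6, had 4.37 and 1.502. By protein, H4 genes were densest at 12.2 and 5.56, followed in control 1 by H3 (9.19 and 3.77), H2B (9.13 and 3.27), H2A (8.72 and 4.01) and linker H1 genes (8.45 and 4.30). The intervals of H1, H2A, H2B and H3 overlapped in each library, so their order is not resolved. The H4 intervals, 10.2 to 14.4 and 4.64 to 6.60, overlapped those of H2A and H3 in each library. They also overlapped H2B in control 1 and H1 in control 2, so the lead of H4 is not resolved either. Hist1h4f had the highest lower value of the class, 12 reads in each library over 391 bp, or 28.9 and 10.6 RPKM. The 3 rows without a read were Hist1h2ba, the testis-specific H2B gene, Hist1h2al and Hist1h4n, and Hist1h1t, the testis-specific linker histone gene, had 1 and 2 reads. Near-identical histone copies may share or lose reads, depending on a treatment of multiple matches that the sources leave unstated.

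Genes of small stable RNAs were dense as well, from few reads, and the order among them depended on how they were chosen. Small nucleolar RNAs guide chemical changes of ribosomal RNA, and the 113 rows chosen by symbol had a density of 5.47 (4.23 to 6.96) in control 1 and 3.44 (2.75 to 4.24) in control 2, from 66 and 86 reads. Snord118, which encodes the U8 small nucleolar RNA, held 16 and 15 reads over 135 bp. It lies at chr11:69073426-69073562 (GRCm38.p6). Rows annotated as small nuclear RNA, the RNA of the spliceosome and its relatives, had 9.52 and 5.01 over 700 rows, although 66.1% of these rows had no read. MicroRNA genes chosen by symbol had 2.40 (2.13 to 2.69) and 2.35 (2.17 to 2.55) over 994 rows, of which 542 (54.5%) had no read. Chosen by the RefSeq annotation instead, 754 small nucleolar RNA rows had 2.54 (2.22 to 2.89) and 2.26 (2.05 to 2.49), below the 3.33 (2.94 to 3.75) and 3.16 (2.90 to 3.44) of 992 microRNA rows. Mir5627 held 5 reads in each library over 61 bp. For microRNA rows with 20 reads or more the mean density was 1.003, where all microRNA rows gave 2.375. All rows of up to 200 bp, of any type, had 2.75 (2.61 to 2.89) and 2.38 (2.30 to 2.48). MicroRNA genes by symbol and small nucleolar RNA rows by RefSeq were near that value of short rows. Small nucleolar RNA genes by symbol, small nuclear RNA rows and microRNA rows by RefSeq were above it. Among the 7 microRNA genes by symbol with 10 reads or more, RPKM averaged over the controls ran from 0.572 to 73.4, with a median of 32.8. The part of long rows in the pooled density of microRNA genes by symbol was not tested. A feature of this size can hold a read whose insertion lies outside it, and the counting rule for partial overlaps is unknown here.

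Genes of the protein synthesis and energy machinery came next. The 85 ribosomal protein genes had a density of 2.17 (1.96 to 2.39) in control 1 and 1.53 (1.41 to 1.66) in control 2, or 1.85 ± 0.448 (SD, n = 2). Of the 48 with 10 reads or more, 40 had the higher RPKM in control 1, where 66.7% of all such rows did. Rps29 held 3 and 7 reads (4.08 and 3.48 RPKM), Rpl15 held 12 and 19 (4.57 and 2.65) and Rpl3 held 9 and 18 (2.67 and 1.95). Subunit genes of complex I, the entry point of the respiratory chain, had 1.55 and 1.44, with Ndufs7 at 3.84 and 2.61 RPKM. Proteasome subunit genes had 1.25 and 1.29, with Psmb10, an immunoproteasome subunit, at 4.97 and 3.64 RPKM. Genes of the mitochondrial ribosome had 1.42 (1.28 to 1.57) in control 1 and 1.05 (0.966 to 1.14) in control 2, whose interval reached 1. Mrpl18, with 20 and 19 reads, had the highest lower RPKM of them. The median counted length was 1684 bp for ribosomal protein genes and 1292 bp for complex I genes. Among protein-coding genes of 1000 to 2000 bp, those with CpG-rich promoters, a class defined below, had 1.93 and 1.53. Intermediate promoters gave 2.15 and 1.675 at that length, and CpG-poor promoters 0.921 and 0.978. Whether the density of these classes goes beyond that of short genes with like promoters was not tested.

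The 211 named processed pseudogenes of ribosomal proteins, which are retrocopies without the parent's promoter, were on the other side of the average. They had 0.482 (0.353 to 0.643) and 0.515 (0.420 to 0.625), and 130 of them (61.6%) had no read. Retrocopies resemble the parent message, and reads that match several places may be missing here. All rows that RefSeq annotates as pseudogenes (6117) had 0.561 and 0.638, and 44.3% had no read.

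Olfactory and vomeronasal receptor genes, which serve sensory neurons, were the thinnest classes. The 1088 olfactory receptor genes had a density of 0.270 (0.254 to 0.287) in control 1 and 0.408 (0.394 to 0.422) in control 2, from 1022 and 3203 reads, or 0.339 ± 0.0974 (SD, n = 2). The 237 vomeronasal receptor genes, for pheromone detection, had 0.232 (0.201 to 0.266) and 0.315 (0.289 to 0.341), or 0.273 ± 0.0583 (SD, n = 2). Both receptor classes were relatively thinner in control 1, by a ratio of 0.662 (0.617 to 0.711) for olfactory and 0.738 (0.626 to 0.868) for vomeronasal receptors. Histone genes went the opposite way, so control 1 held the wider range between these dense and thin classes. Reads were not absent from receptors: 178 olfactory receptor genes (16.4%) had none, and the others had at least 1. Among members with 10 reads or more, the highest lower RPKM was that of Olfr348, with 6 and 19 reads (1.55 and 1.80 RPKM), and of Vmn1r4, with 9 and 21 (2.27 and 1.93 RPKM). Olfactory receptor rows with 20 reads or more had a mean density of 0.814, since that minimum keeps only the densest of them.

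Olfactory receptor pseudogenes and the genes of taste receptors, keratin-associated proteins and cytochromes P450 were also thin, while defensin genes and antigen receptor segments were not resolved from the average in both libraries. Olfactory receptor pseudogenes had 0.329 and 0.428, taste receptor genes 0.490 and 0.607, and keratin-associated protein genes, which build hair, 0.599 and 0.684. Defensin genes, for antimicrobial peptides, had 0.607 and 0.731 from 14 and 35 reads, with intervals that reached 1. Cytochrome P450 genes, which oxidise drugs and lipids, had 0.782 and 0.763, and a mean of 1.52 among rows with 20 reads or more. Immunoglobulin segments had 0.959 (0.718 to 1.25) and 0.584 (0.453 to 0.742) and T cell receptor segments 1.14 and 1.16 with intervals that held 1, from 27 to 67 reads per library. Of these antigen receptor rows 66.0% and 68.9% had no read.

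Developmental transcription factor genes were near the average. Sox genes had 1.05 and 0.992 and forkhead genes 0.970 and 0.919. Hox genes, which pattern the body axis and are held by Polycomb in stem cells, had 0.780 (0.626 to 0.959) and 0.912 (0.794 to 1.04). Sox17, an endoderm regulator, held 19 and 43 reads (3.75 and 3.10 RPKM). Foxh1, a partner of Smad proteins in Nodal signalling, held 3 and 8, and Hoxb1 held 6 and 14 (2.43 and 2.08 RPKM). Numbered zinc finger genes, a large family that includes many repressors of transposons, had 0.934 and 0.878 over 385 rows. Keratin genes had 0.776 (0.636 to 0.936) in control 1 and 1.09 (0.976 to 1.22) in control 2. The 20683 predicted Gm genes had 0.884 and 0.945 and held 15.4% and 16.5% of exon reads, and 6834 of them (33.0%) had no read. Among Gm rows with 20 reads or more the mean density was 3.66, so their side of the average depends on that minimum.

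Clustered protocadherins, adhesion proteins that give neurons their identity, split by cluster. The 22 rows of the gamma cluster had a density of 3.71 (3.39 to 4.05) in control 1 and 1.67 (1.51 to 1.83) in control 2. The 14 alpha rows had 0.470 and 0.447, and the 22 beta rows had 0.414 and 0.404. Gamma rows share the constant exons at their end, so the same reads may stand in several rows, and their density is uncertain. Pcdhgc5 held 34 and 29 reads and Pcdhga12 held 27 and 25.

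Hist1h4i, Sfi1 and Hist1h1c had the highest lower RPKM among the 337 protein-coding genes with 20 reads or more in each library. The 15 highest by that measure are described here, and the minimum of 20 reads in the shallower control 1 favours genes that were higher there. Hist1h4i, a histone H4 gene, held 25 and 21 reads over 727 bp (32.4 and 9.95 RPKM). Hist1h1c, for a linker histone, held 32 and 31 (19.3 and 6.84), and Hist1h4d, for H4, held 24 and 20 (19.9 and 6.05). All 3 lie in the Hist1 cluster, and each was higher in control 1. Sfi1, for a centrin-binding protein, came next after Hist1h4i with 91 and 155 reads over 7559 bp (11.3 and 7.06 RPKM, chr11:3131850-3203347). Sdccag8, another gene for a centrosomal protein, held 32 and 56 reads (7.30 and 4.67).

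Several of the others encode enzymes. Mdh1, for cytosolic malate dehydrogenase, held 27 and 42 reads (9.91 and 5.63 RPKM, chr11:21556692-21571934). Asah1, for lysosomal acid ceramidase, held 20 and 45 (5.56 and 4.57), the closest pair of values among the 15. Dnpep, for aspartyl aminopeptidase, held 41 and 50 (9.01 and 4.01), and Fah, for the last step of tyrosine breakdown, held 23 and 23 (9.77 and 3.57). Ing1, whose product reads a histone mark of active promoters, held 40 and 49 (11.04 and 4.95). Nutf2, for the importer of Ran into the nucleus, held 25 and 21 (11.6 and 3.56). The ubiquitin ligase genes Trim41 and Fbxo24 held 39 and 37 (10.5 and 3.63) and 26 and 29 (9.75 and 3.98). Grcc10 held 33 and 33 (15.6 and 5.72), and 1700056E22Rik held 30 and 25 (22.2 and 6.77). All 15 had the higher RPKM in control 1, a direction that this choice favours. The median protein-coding gene had 0.922 and 0.754 RPKM. Dnpep, Sdccag8 and 1700056E22Rik lie on chromosome 1, Asah1, Ing1 and Nutf2 on chromosome 8, and Mdh1, Sfi1 and Trim41 on chromosome 11. These autosomes had the highest densities in both controls, as given below. They hold 1167, 983 and 1574 of the 20272 protein-coding genes. Grcc10, Fbxo24 and Fah lie on chromosomes 6, 5 and 7. The part of the chromosome in these values was not tested.

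**Figure D3:**
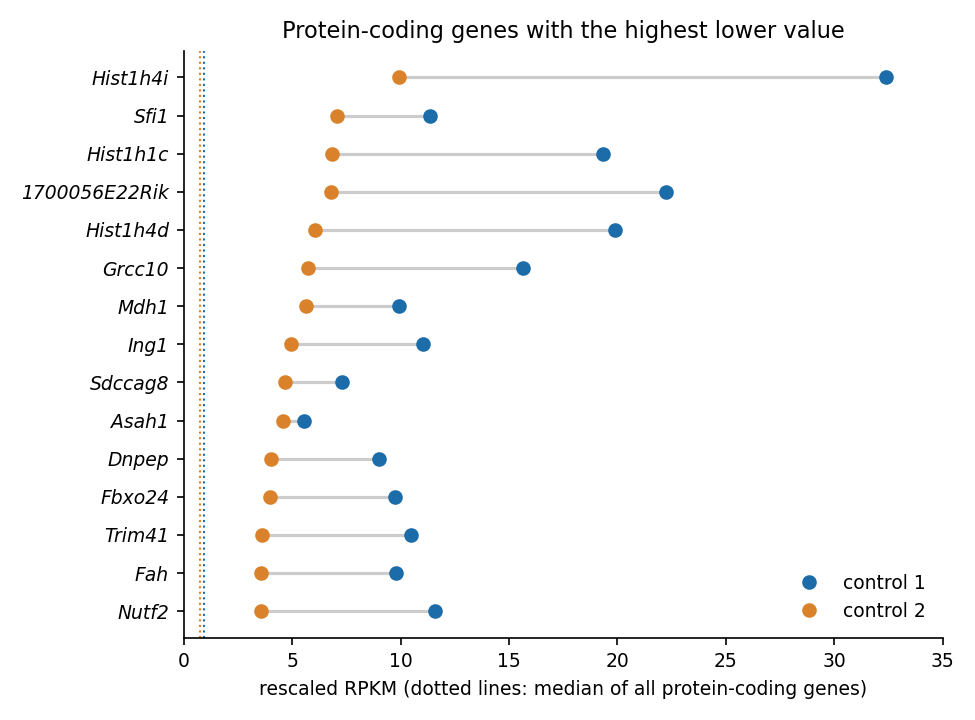
Rescaled RPKM (x axis) of the 15 protein-coding genes with the highest lower value among 337 with 20 reads or more in each control; blue points are control 1, orange points control 2, grey lines join the pair and dotted lines mark the medians over all protein-coding genes. Control 1 is the higher of the pair for all 15, from 32.4 against 9.95 for Hist1h4i to 5.56 against 4.57 for Asah1.

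Long genes without reads marked the other end. A gene with 0 reads in both controls has a length here only where an overexpression library held a read. Of 20272 protein-coding genes, the 20063 with a length were ranked. Genes without a read in any library of the series could not be listed. Olfr859, an olfactory receptor gene on chromosome 9, had 0 reads in both libraries over 9598 bp, where the average density would give 33.1. Gm2396 (9019 bp), 9930111J21Rik2 (7017 bp), Naip6 (6827 bp), Sp110 (6781 bp), Vmn1r209 (6550 bp), Olfr1324 (5808 bp) and Trim12a (5781 bp) had no read either, where 19.9 to 31.1 would be the average. Naip6 belongs to a family of bacterial sensors of macrophages, Sp110 is a nuclear body protein of immune cells, and Trim12a is of an antiviral family. Vmn1r172 had 0 and 1 reads over 9109 bp. Flg, for filaggrin of the outer skin, had 2 and 3 reads over 18829 bp, where 64.9 would be the average. Of the 100 lowest protein-coding genes by this measure, 38 were olfactory and 10 were vomeronasal receptor genes, classes that make up 5.36% and 1.17% of all protein-coding genes. Several of these genes have near-identical copies, and reads that match several copies may have been set aside.

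The sequence upstream of the RefSeq start is shown for the genes at the ends of the range, with each CpG in capitals, because CpG content is the feature that sorts promoters in the next comparison. Both runs are the 250 bases before the start, from RefSeq on GRCm38.p6. Hist1h4i, listed there as H4c9, is on the minus strand and its run is chr13:22041363-22041612. Olfr859 is on the plus strand and its run is chr9:19808070-19808319.
Hist1h4i: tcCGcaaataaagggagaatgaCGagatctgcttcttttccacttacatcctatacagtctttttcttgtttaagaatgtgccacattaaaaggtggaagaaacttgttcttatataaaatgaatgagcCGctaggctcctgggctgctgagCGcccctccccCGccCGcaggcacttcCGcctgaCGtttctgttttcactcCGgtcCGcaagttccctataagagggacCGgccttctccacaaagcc
Olfr859: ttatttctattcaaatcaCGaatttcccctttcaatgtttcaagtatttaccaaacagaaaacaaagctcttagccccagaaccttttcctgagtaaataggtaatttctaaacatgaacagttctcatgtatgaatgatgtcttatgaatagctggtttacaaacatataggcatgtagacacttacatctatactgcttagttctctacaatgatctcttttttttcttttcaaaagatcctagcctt
The Hist1h4i run holds 11 CpG and 49.2% G and C, and the Olfr859 run holds 1 CpG and 32.4%. Over 16255 protein-coding genes with such a sequence the median was 11 CpG, and over 916 olfactory receptor genes it was 1. TATAAA, searched on either strand, occurs in the Hist1h4i run and not in the Olfr859 run, and 11.85% of the protein-coding runs hold it. The RefSeq entry of Olfr859 spans chr9:19808320-19809249, less than the 9598 bp counted, so its annotated start may not be the start of the longer feature.

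CpG-poor genes held fewer reads for their length than other protein-coding genes over all rows, by a small margin, but not fewer than CpG-rich genes among rows with 20 reads or more. Promoter windows of 300 bases, 250 before and 50 after the start, were available for 16255 of 20272 protein-coding genes (80.2%). They were called CpG-rich where CpG exceeded 0.75 of the number their bases predict and G and C exceeded 55%, and CpG-poor where CpG stood below 0.48. The 5157 CpG-rich genes had a density of 1.05 in control 1 and 1.03 in control 2, the 4514 intermediate genes 1.18 and 1.10, and the 6584 CpG-poor genes 0.812 and 0.869. As means these are 1.04 ± 0.0161, 1.14 ± 0.0576 and 0.841 ± 0.0404 (SD, n = 2). Of CpG-rich genes 12 (0.233%) had no read, against 746 (11.3%) of CpG-poor genes. Without chemoreceptor genes the CpG-poor class stood at 0.921 and 0.964, still relative to all rows. With these genes left out of the average as well, its mean was 0.917. Among rows with 20 reads or more the CpG-rich class had 0.875, the CpG-poor class 0.922 and the intermediate class 0.984, so the order of the first pair turned at that minimum. The CpG-rich class stood at 0.943 by the mean RPKM of its rows.

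Short genes with CpG in their promoter windows were dense, and the promoter classes lay closer together among long genes, where CpG-poor genes were still lowest. CpG-rich genes of up to 1 kb had 2.53 in control 1 and 1.93 in control 2, and those over 8 kb had 0.817 and 0.879. Intermediate genes ran from 4.34 and 2.36 to 0.823 and 0.882 over the same lengths. Up to 1 kb, the median RPKM was 2.32 and 1.52 for the 195 intermediate genes and 2.11 and 1.39 for the 94 CpG-rich genes. These medians lie closer together than the pooled densities. The short intermediate genes include the histone gene Hist1h4i, and the part of histone genes in the pooled values was not tested. CpG-poor genes began at 0.967 and 0.926 and ended at 0.701 and 0.814. Over 8 kb the CpG-poor interval ran from 0.679 to 0.724 in control 1 and from 0.798 to 0.831 in control 2, and without chemoreceptor genes the class had 0.731 and 0.842 there. Over all rows the density was 2.75 and 2.38 up to 200 bp, and 0.784 and 0.870 over 8 kb.

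**Figure D4:**
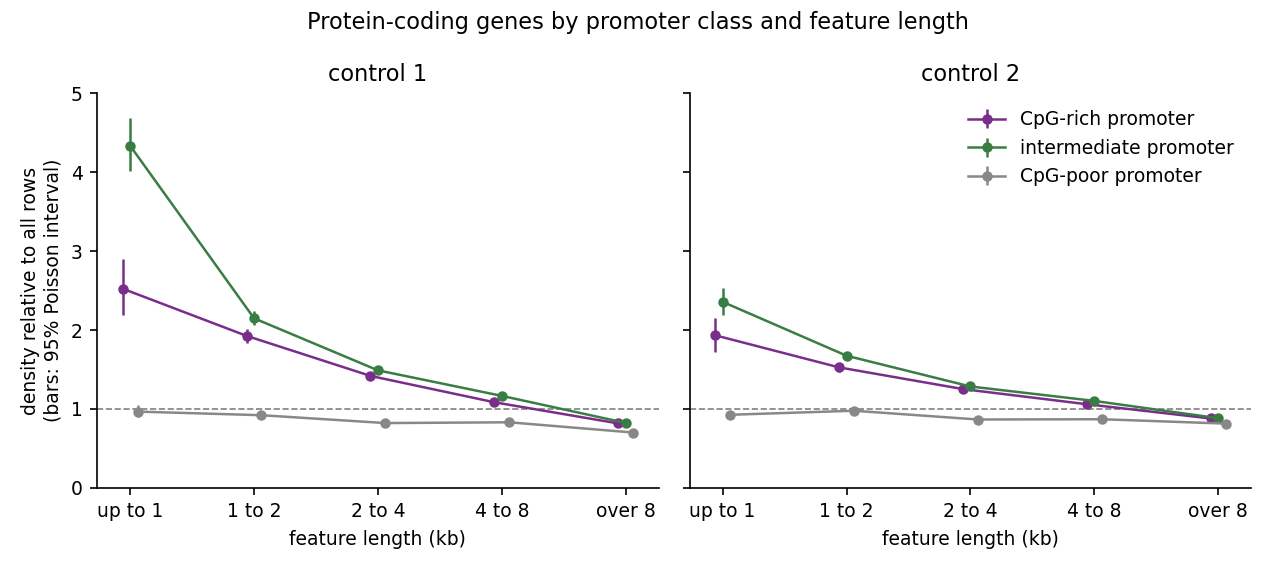
Relative read density (y axis, 1 is the average over all rows) of protein-coding genes by counted exon length (x axis, kb) and promoter class, with control 1 on the left and control 2 on the right; bars are exact Poisson 95% intervals. CpG-rich and intermediate genes go from 2.53 and 4.34 at the shortest lengths to 0.817 and 0.823 at the longest in control 1, and CpG-poor genes vary least.

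Density also differed between chromosomes, and the same 3 autosomes stood highest in both controls. Relative to all autosomes, chromosome 1 had 1.26 in control 1 and 1.34 in control 2, chromosome 8 had 1.43 and 1.32, and chromosome 11 had 1.37 and 1.41. As means these are 1.299 ± 0.0602, 1.375 ± 0.0785 and 1.39 ± 0.0250 (SD, n = 2). The other autosomes had means of 0.739 to 1.05. Genes with CpG-rich promoters alone gave 1.23 and 1.25 for chromosome 1, 1.45 and 1.32 for chromosome 8, and 1.35 and 1.36 for chromosome 11. In windows of 5 Mb with 100 reads or more, 30 of 36 on chromosome 1, 25 of 26 on chromosome 8 and 23 of 25 on chromosome 11 were above 1 in both libraries. Over all chromosomes 126 of 458 windows (27.5%) were. Cultured embryonic stem cells are known to gain whole chromosomes. The labels give no karyotype, and the number of copies and the accessibility of each copy cannot be told apart in these values.

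Other autosomes differed between the controls. Chromosome 6 was lowest, at 0.830 in control 1 and 0.648 in control 2, and 25 of its 27 windows were higher in control 1. Chromosomes 2 (0.837 and 0.756) and 3 (0.848 and 0.740) were low in both. Chromosome 9 had 0.889 and 1.13, chromosome 10 had 0.896 and 1.11, and chromosome 15 had 0.939 and 1.12. The opposite held on chromosome 12 (1.04 and 0.851), chromosome 19 (1.019 and 0.825) and chromosome 7 (0.947 and 0.811). Of 19 autosomes, 8 had a ratio of control 1 to control 2 with an interval above 1 and 7 with an interval below 1. Across the 19, which share their libraries, r was 0.762 and rho 0.547, given as a description.

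The X chromosome, of which a male cell carries a single copy, had 0.580 (0.557 to 0.604) in control 1 and 0.696 (0.679 to 0.714) in control 2, or 0.638 ± 0.0821 (SD, n = 2). Its genes with CpG-rich promoters had 0.760 and 0.793, and its rows with 20 reads or more had a mean of 0.830. The 23 matched rows of the Y chromosome held 10 reads in control 1 and 24 in control 2, a density of 0.124 and 0.145.

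**Figure D5:**
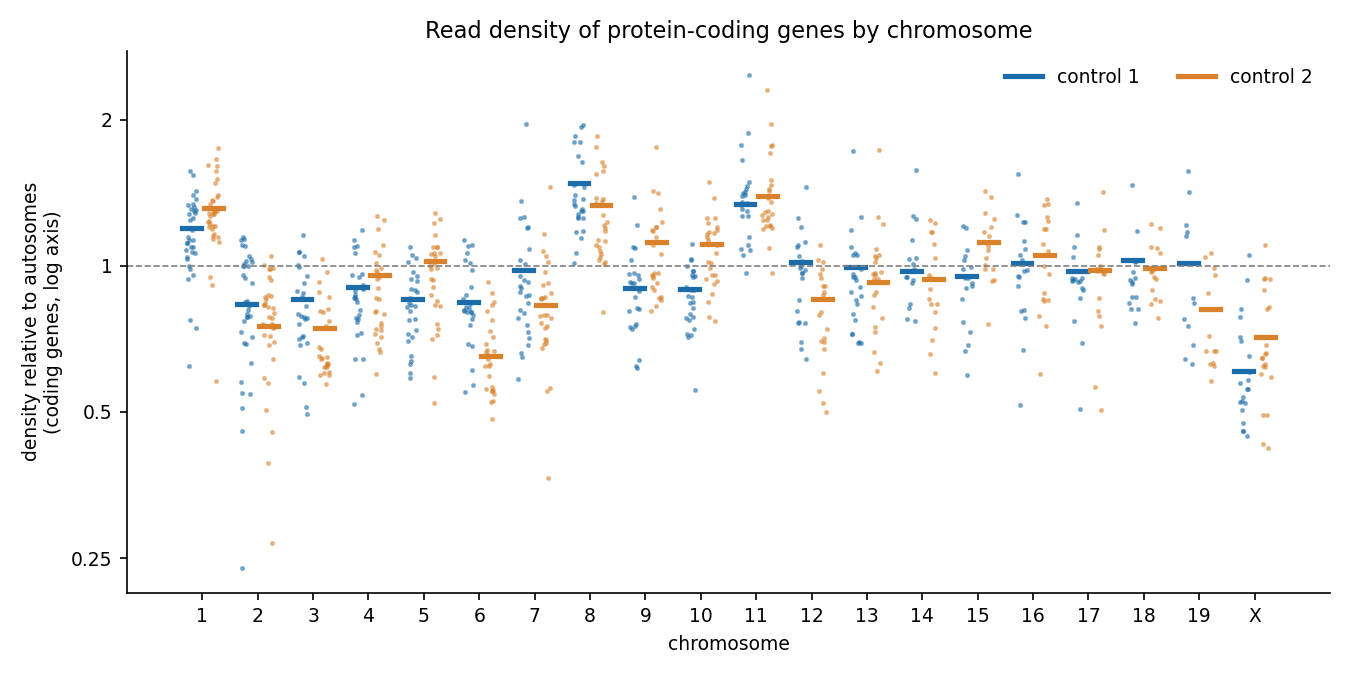
Read density of protein-coding genes relative to those on all autosomes (y axis, log scale) by chromosome (x axis); thick bars are the chromosome's density in control 1 (blue) and control 2 (orange), and small points are its windows of 5 Mb with 100 reads or more. Chromosomes 1, 8 and 11 stand above the dashed line at 1 in both libraries, at 1.196 and 1.31, 1.48 and 1.33, and 1.34 and 1.39, and the X chromosome below it at 0.608 and 0.713.

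Marker genes of pluripotency, which the labelled cell type is known to use, lay above the average. The 18 genes of the list had a density of 1.78 (1.47 to 2.14) in control 1 and 1.53 (1.33 to 1.76) in control 2, and 11 of them (61.1%) were above the median protein-coding gene in both. Of all protein-coding genes 33.7% were. The median counted length of the list was 2406 bp. Among protein-coding genes of 2000 to 4000 bp, CpG-rich ones had 1.42 and 1.25, intermediate ones 1.49 and 1.285 and CpG-poor ones 0.821 and 0.866. Klf2 and Zfp42 lie on chromosome 8 and Prdm14 and Tfcp2l1 on chromosome 1, which were dense in both controls. The rest of the list lies on less dense chromosomes. Whether the list goes beyond its lengths, promoters and chromosomes was not tested. Klf2, a transcription factor of the naive state, held 14 and 19 reads (7.14 and 3.54 RPKM). Zfp42, also known as Rex1, held 9 and 11 (4.51 and 2.01), and Pou5f1, the central pluripotency factor Oct4, held 9 and 8 (3.77 and 1.23). Fgf4 held 11 and 9 reads. Tbx3 held 16 and 14 and lay below the median protein-coding gene in control 2 (0.728 RPKM against 0.754). Tfcp2l1 held 8 and 26 (0.799 and 0.949 RPKM) and Sall4 held 5 and 24 (0.851 and 1.49). Both lay below the median of 0.922 in control 1. Tdgf1, Sox2 and Dppa5a were also below it in control 1, and Dppa4 was below the median in both libraries. Utf1 (6 and 4 reads), Sox2 (2 and 5), Nanog (3 and 6), Dppa3 (1 and 2), Dppa4 (1 and 3) and Dppa5a (0 and 3) held few reads. Their side of the median is therefore uncertain. Utf1, Nanog and Dppa3 are among the 11 counted above it in both libraries.

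Lineage markers were close to the average, with intervals that reached 1 in control 1. Primitive endoderm genes had 1.08 and 1.19, trophectoderm genes 1.15 and 1.08, mesoderm genes 1.15 and 0.957, and neuroectoderm genes 1.13 and 0.955. Sox17 alone supplied 19 of 74 and 43 of 169 primitive endoderm reads, and the interval of that list in control 2 ran from 1.015 to 1.38. Fibroblast markers, which would show feeder cells, had 0.877 (0.645 to 1.17) and 0.881 (0.715 to 1.07), and 4 of the 10 (40.0%) were above the median protein-coding gene in both. Col1a1, a collagen gene of connective tissue, held 11 and 34 reads, and Lum held 0 and 1. Housekeeping genes had 2.202 (1.84 to 2.61) in control 1 and 1.33 (1.14 to 1.55) in control 2. Gapdh, of glycolysis, held 29 and 40 reads, and Actb, for cytoskeletal actin, held 8 and 10. Accessible exons do not show that a gene is transcribed, and no RNA was measured in these libraries.

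The rows with the smallest p between the controls were predicted genes with many reads, and the rows that differed included protein-coding genes with large ratios from few reads. They were sought with a two-sided exact binomial test of each row's reads, against control 1's share of all exon reads, 32.5%, which compares these 2 libraries and no condition. Of 6357 rows with 20 reads or more, 156 (2.45%) differed at a Benjamini-Hochberg adjusted p under 0.05, 90 (1.42%) higher in control 1 and 66 (1.04%) higher in control 2. At an unadjusted p under 0.05 there were 978 (15.4%). With the variance scaled by the chi-square over its degrees of freedom 14 rows were called, 11 higher in control 1 and 3 in control 2. Of the 156 rows 57.7% were higher in control 1, as were 68.5% of the 111 called from 10 reads and 91.8% of the 487 called when the share came from the library totals.

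By p, predicted genes led the rows higher in control 1. Gm28437 held 238 reads in control 1 and 118 in control 2 (exact binomial test, adjusted p = 2.6e-36), and Gm10925 held 229 and 121. Gm28438 (301 and 241), Gm28439 (137 and 59) and Gm28661 (162 and 103) were the next 3. The 55 protein-coding genes of this side included 4 histone genes. Hist1h2bf held 28 and 4 reads (57.2 and 2.99 RPKM, adjusted p = 9.2e-08 by the exact binomial test), and the others were Hist1h2bg, Hist1h2bk and Hist1h3d. They also included Rbbp7, a histone-binding subunit of several chromatin complexes, with 27 and 5 reads, and its neighbour on the X chromosome Txlng with 29 and 13. Hspa8, a constitutive chaperone, held 37 and 25 reads, Eef1a1, of translation elongation, held 18 and 5, and Pkm, of glycolysis, held 24 and 16. Rows annotated as small nuclear RNA, 22 of the 6357 tested, made up 7 of the 90 and 0 of the 66 on the other side. In these 7, Rnu3b3 and Rnu3a stand on a pair of rows each, so they are 5 genes. The protein-coding genes named here were chosen after their values were seen, apart from Eef1a1.

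By p, Gm10800 led the rows higher in control 2, with 697 and 3627 reads (exact binomial test, adjusted p = 2.1e-128). Gm10722 held 9 and 151 reads, Gm26870 held 0 and 86, and Gm10717 held 33 and 184. Pkd1l2, of the polycystin family, held 4 and 65 (adjusted p = 5.7e-05 by the exact binomial test). There were 16 rows with 20 reads or more in control 2 and 0 in control 1, among them Olfr46 with 25, and 0 rows the other way. Control 1 held 32.5% of the exon reads of the pair, so for the same total 0 reads are likelier there. The 49 protein-coding genes higher in control 2 had a median exon length of 8172 bp. It was 5001 bp for the 55 higher in control 1 and 6463.5 bp for the 5894 protein-coding genes tested. At that share of control 1, a change of the same fold needs more reads to be called towards control 2. Longer genes tend to hold more reads, and whether the lengths differ beyond this was not tested. Of the genes higher in control 2, Chd8, a chromatin remodeller, held 11 and 85 reads. Lyst, of lysosome traffic, held 18 and 106, and Ttn, the giant muscle protein titin, held 42 and 151. These genes, like Olfr46, were chosen after their values were seen.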

How the data were processed

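ATAC-seq libraries of J1 cells had been processed by the authors into RPKM values for 46406 gene rows, with Trimmomatic, Bowtie2, featureCounts and build mm10, per the submitters' processing notes. Versions, filters and the handling of duplicates and multiple matches are unstated in the sources used here. Each deposited RPKM value had been divided by 1 of 8 library totals that rotate from row to row. The totals were recovered from 2447 short RNA rows of known length, with 253 to 286 single-read values for each and 2 for the next candidate. In the 38361 rows that had at least 2 values, exactly 1 rotation solved the row. A further 5918 rows had 1 value, of which 963 allowed several rotations and took the shortest length, and 2127 rows were 0 throughout. Each row took its smallest whole-number solution, so reads and length may both be understated by the same factor. The length matched the annotation in 87.6% of 1125 short RNAs. Totals were placed where exon shares were most alike (ratio 1.365 between the highest and the lowest library, against 4.17 to 10.15 for other placements in rotation order).

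Reads per row were compared between the controls with the exact binomial test (SciPy 1.17.1) and Benjamini-Hochberg adjustment over rows of 20 reads or more. The recovery and the test were tested on simulated data. Coordinates, types and promoter windows came from RefSeq on GRCm38.p6, which matched 34202 rows (73.7%), and 80 symbols stood on several rows. Named are the 10 rows with most reads, the 15 highest and 10 lowest protein-coding genes, the 5 rows most different in each direction, the leading member of each class, and markers. Members and lists were chosen with earlier results of these data known. Alternatives covered the minimum of reads, pseudocount, scaling, row averaging, promoter subsets and each library left out.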

Additional observations from a re-analysis of the deposited data

How the results depend on the processing

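Of the summary results, 64 values under alternatives stayed within their limits, 29 moved, 4 changed side of the average, 1 count rose and 2 fell by over 1.5 times. Of the values for single classes, chromosomes and genes, 255 stayed, 60 moved and 11 changed side. Leaving out either control leaves the other's value, so histone genes ranged from 4.04 to 9.40, ribosomal protein genes from 1.53 to 2.17, olfactory from 0.270 to 0.408 and vomeronasal receptor genes from 0.232 to 0.315, chromosomes 1, 8, 11 and X from 1.26 to 1.34, 1.32 to 1.43, 1.37 to 1.41 and 0.580 to 0.696, and CpG-rich, intermediate and CpG-poor genes from 1.03 to 1.05, 1.10 to 1.18 and 0.812 to 0.869. With values as deposited, averaged over rows, which changes both the scaling and the averaging, the mean densities were 0.203 for vomeronasal receptors, 0.880 for T cell receptor segments, 1.55, 1.29, 1.52 and 1.021 for chromosomes 1, 8, 11 and 13, and 0.986 and 0.697 for CpG-rich and CpG-poor genes. Averaging rescaled RPKM over rows gave 0.209 for vomeronasal receptors, 1.009 for Gm genes, 1.51, 1.28, 1.48, 1.035, 0.987 and 0.986 for chromosomes 1, 8, 11, 13, 16 and 17, and 0.943 and 0.692 for CpG-rich and CpG-poor genes. Rows with 20 reads or more, a set that keeps dense rows, gave 0.814 for olfactory receptors, 1.52 for P450 genes, 3.66 for Gm genes, 1.153, 1.29, 1.29 and 0.830 for chromosomes 1, 8, 11 and X, and 0.875, 0.984 and 0.922 for CpG-rich, intermediate and CpG-poor genes. Among alternatives added after seeing the data, protein-coding genes gave 0.978 for chromosome 17. Those without receptor genes gave 1.22, 1.36, 0.991 and 0.977 for chromosomes 1, 11, 17 and 18. They also gave 1.013 and 0.917 for CpG-rich and CpG-poor genes, where receptor genes were left out of the average too. CpG-rich genes gave 1.356 for chromosome 11 and 0.776 for X. Pearson's r was 0.021 from 1 read, 0.953 from 100, 0.770 with a pseudocount of 1 and 0.575 as deposited, and rho was 0.134 from 1 read, 0.922 from 100 and 0.455 as deposited. Differing rows numbered 102 from 50 reads, 487 with the share from library totals and 14 with scaled variance. The cause of these changes was not tested, apart from the stricter minimum, which tests fewer rows. No paired analysis was possible because only 1 group was described. Depth limits single genes: at the median coding length of 3547 bp, 3 reads equal 0.797 RPKM in control 1 and 0.291 in control 2.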

Other observations

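Long non-coding RNA genes held as many reads for their length as the average exon, with a relative density whose interval ran from 0.989 to 1.031 in control 1 and from 0.975 to 1.003 in control 2 over 4560 rows. The Riken clone genes, largely transcripts without a known product, had 1.06 and 1.002 over 2902 rows. The one with the highest lower RPKM, the long non-coding RNA gene 2900060B14Rik at chr1:118458669-118459265 (GRCm38.p6), held 30 and 25 reads over 616 bp (45.9 and 14.0 RPKM).

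Further classes are given here by the member with the highest lower RPKM among those with 10 reads or more. Krtap9-5, of hair keratin matrix, held 6 and 13 reads (5.25 and 4.16 RPKM), and Tas1r2, a subunit of the sweet taste receptor, held 6 and 10 (1.86 and 1.13). Cyp27b1, which activates vitamin D, held 5 and 15 reads (1.83 and 2.01), and Krt32, a hair keratin gene, held 3 and 9 (1.64 and 1.80). The olfactory receptor pseudogene Olfr754-ps1 held 2 and 10 reads (2.07 and 3.78), and the retrocopy Rpl29-ps2 held 4 and 6 (2.85 and 1.56). Among antigen receptor segments Ighv8-2 held 7 and 3 reads and Trbv31 held 4 and 8. By the same measure Zfp1 is given for the numbered zinc finger genes, with 8 and 22 reads (3.70 and 3.71), and Pcdhgb7 for the protocadherins, with 19 and 23 (3.798 and 1.68).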
